A study of Mus musculus with 14 samples.

Results

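The CaM kinases are protein kinases that are switched on by calcium bound to calmodulin. The 9 genes described here are Camk2a, Camk2b, Camk2d and Camk2g, which encode the alpha, beta, delta and gamma subunits of CaMKII, Camkk1 and Camkk2, which encode the CaM kinase kinases, Camk1 and Camk4, which encode kinases that CaM kinase kinases activate, and Camkv, which encodes a CaM-kinase-like protein of synaptic vesicles that lacks kinase activity. They were taken by symbol from a deposited table of 23412 genes, and all 9 had values in every library. All libraries came from mouse brain cortex. Control mice had the genotype Rpl22flox/flox;CamKCre+, and knock-out (KO) mice carried Fmr1X-Y in addition, so both groups had a floxed Rpl22, a gene of the large ribosomal subunit, and a Cre driven by a CamK promoter. The source is named as CAMKIIa-Ribotag, which is a design for tagging ribosomes in Cre-expressing cells, but the protocols name no pull-down of tagged ribosomes, and the values are those of whole cortical lysate. The labels give no age. They do not say whether the Cre transgene carries transcribed Camk2a sequence, which would be present in both groups. RNA-seq libraries came from 4 controls, mice 1, 3, 6 and 8, and from 4 KO animals, mice 2, 4, 5 and 7. Ribosome profiling, which sequences the mRNA fragments shielded by ribosomes (footprints), was done on 3 controls, mice 1, 3 and 9, and on 3 KO animals, mice 2, 4 and 10.

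In forebrain neurons, calcium entering through NMDA-type glutamate receptors loads calmodulin, which opens the autoinhibited CaMKII holoenzyme; the kinase then phosphorylates itself and stays partly active after calcium has fallen. Camk2a mRNA is abundant in excitatory neurons, is carried into dendrites and is translated there. The second branch of the pathway is a cascade in which CaM kinase kinases phosphorylate CaMKI and CaMKIV, and CaMKIV acts on transcription factors in the nucleus. Camk2a mRNA is also a classic ligand of FMRP, the RNA-binding protein that Fmr1 encodes.

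Levels are given as CPM, a gene's counts divided by its TMM-adjusted library total. They are not corrected for length, so they are compared between libraries and not between genes. Each RNA library was counted in a pair of ways in the table. The matched columns carried values for the same genes as the footprints and are called RNA below, and the exon columns had larger totals. Totals were 8847547 to 11371851 counts in the matched RNA columns, 16351772 to 20793293 in the exon columns and 4124065 to 6033030 in the footprint libraries, and the CaM kinases had 573 to 8365 counts per library in RNA and 233 to 18678 in footprints. In KO mice, the level of Fmr1 was 26.1% of that in controls for RNA and 6.56% for footprints, with no overlap between the genotypes. KO mice 2, 4 and 7 had nearly the same RNA profile (chi-square per degree of freedom between pairs of 1.18 to 1.32), and control mice 1 and 3 were the next closest pair (1.99). KO mouse 5 was at 5.64 to 6.02 from the other KO mice. Control mouse 6 was at 4.12 and 4.57 from mice 1 and 3, and control mouse 8 at 10.6 and 11.8 from them and at 4.03 from mouse 6. The summed RNA of 4 choroid plexus markers was at 278 CPM in control mouse 8 and 116 CPM in KO mouse 5, against 5.31 to 19.0 CPM in the other 6 RNA libraries. Values without mice 5 and 8, a choice made after these values were seen, are given below where the call of a CaM kinase changed, and as counts for the gene lists. On the same chi-square scale, footprint libraries were at 1.15 to 1.42 from each other within a genotype and at 4.83 to 5.92 between genotypes. No fit with footprint libraries summed was run. Nothing in the labels says how separately the tissue samples were prepared, so the p-values of both assays measure the spread between these libraries.

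Camk2a, the main CaMKII subunit of the forebrain, was the CaM kinase whose mRNA level rose in KO cortex, while its footprints fell slightly. Its RNA was at 432.4, 411.1, 473.0 and 551.6 CPM in control mice 1, 3, 6 and 8 and at 743.4, 728.5, 950.3 and 717.4 CPM in KO mice 2, 4, 5 and 7. The lowest KO library lay above the highest control library, control mouse 8, and KO mouse 5 was the highest of all. Genotypes did not overlap in 15.1% of the genes tested. The mean of 4 mice rose from 467.0 ± 62.0 to 784.9 ± 111 CPM (SD), or 1.68-fold (edgeR log2 fold change 0.75 ± 0.099 SE, adjusted p = 0.000739). Camk2a was the 1 call among the 9 CaM kinases in RNA, where 7.51% of 13507 genes were called. Its change was larger in size than that of 98.9% of the genes tested. The rise was present within each set of mice that share a title prefix, with log2 ratios of the means of 0.78 for mice 1 and 2, 0.83 for mice 3 and 4 and 0.70 for mice 5 to 8. It kept its call with mice 2, 4 and 7 summed to 1 library and mice 1 and 3 to another (0.80 ± 0.13, adjusted p = 0.0292, edgeR). In bulk tissue, more cells of a type and more RNA per cell cannot be told apart.

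**Figure D1:**
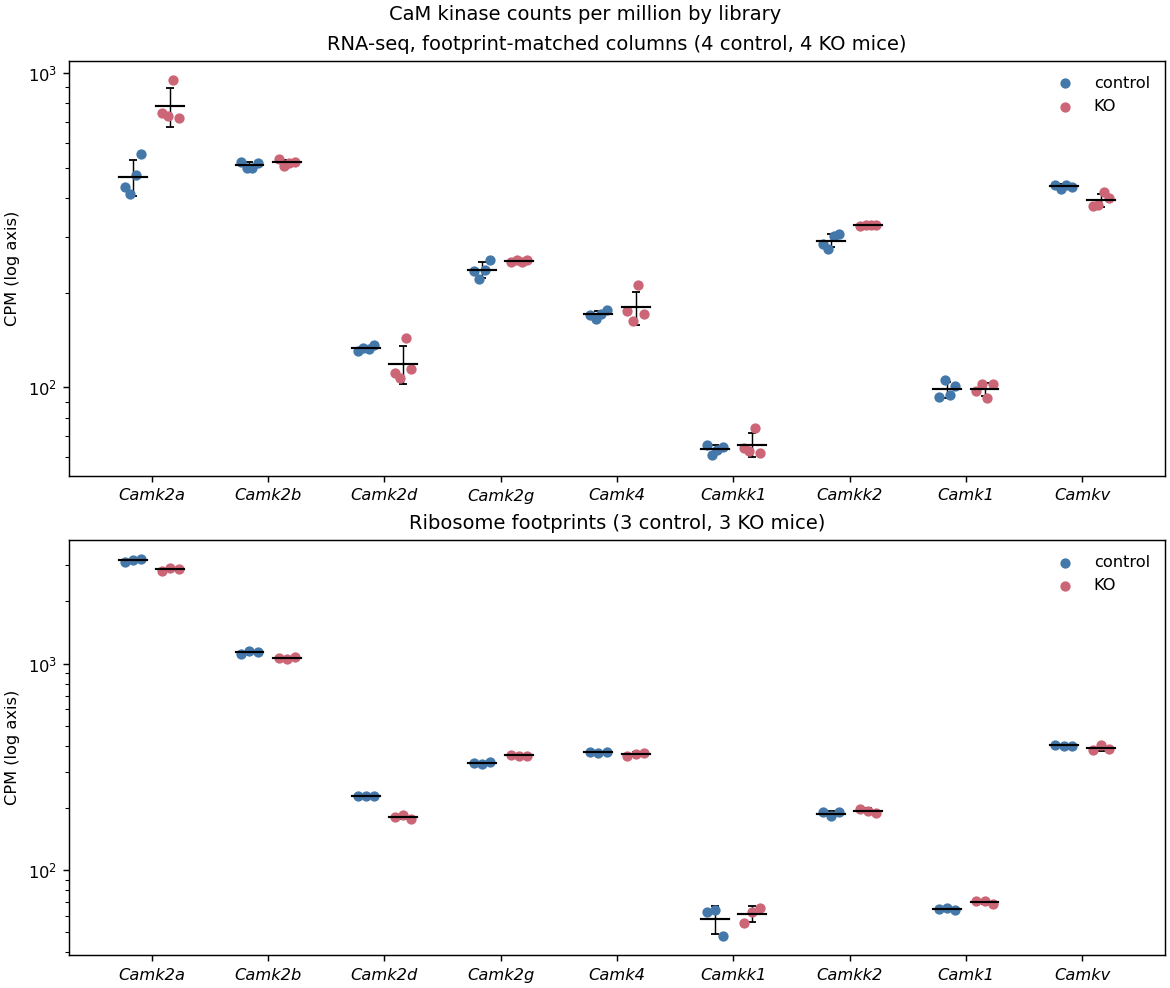
Levels of the 9 CaM kinases in each library, in CPM on a log axis, with RNA above and footprints below. Points are mice, horizontal lines are means and bars are SDs; Camk2a is the only member whose KO libraries lie above the controls by more than 100 CPM in RNA, and its KO footprints lie below the controls.

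Camk2a footprints were at 3098.4, 3167.8 and 3200.4 CPM in control mice 1, 3 and 9 and at 2807.4, 2907.8 and 2864.0 CPM in KO mice 2, 4 and 10. All KO libraries lay below all control libraries, as happened in either direction in 37.3% of the genes tested in footprints. The mean of 3 mice fell from 3156 ± 52.1 to 2860 ± 50.3 CPM (SD), or to 90.6% of control (edgeR log2 fold change -0.14 ± 0.019 SE, adjusted p = 5.96e-10). In footprints, 25.7% of 12158 genes were called, and 45.7% of the genes tested changed less than Camk2a in size. With the spread estimated over all 14 libraries of both assays the same fold change was not called (adjusted p = 0.329, edgeR). On plain library sizes the log2 fold change was -0.083, where the median of all genes was 0.066 against 0.0060 with TMM.

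Translational efficiency (TE), the change of footprints relative to that of RNA, was tested as the interaction of genotype and assay. Camk2a TE fell to 54.0% of the control value (edgeR log2 fold change -0.89 ± 0.12 SE, adjusted p = 8.38e-05). It was the 1 CaM kinase called, where 7.14% of 12145 genes were called, and its size exceeded that of 98.8% of the genes tested. Mice 1 to 4 gave both kinds of library, and their footprint to RNA ratio could be read within an animal. Control mice 1 and 3 had 7.17 and 7.71 times as many CPM in footprints as in RNA, and KO mice 2 and 4 had 3.78 and 3.99 times as many. Of 12142 genes, 16 and 15 had a higher ratio in the control mice, and 82 and 72 in the KO mice, so the Camk2a ratio stayed among the highest in both genotypes. Keeping the mouse as a block gave a fall of 0.94 for Camk2a (SE 0.049, adjusted p = 2.35e-77, edgeR). That fit called 1866 genes in TE, against 867 in the main test. The other mice gave a single kind of library, so the blocked contrast rests on mice 1 to 4. KO mice 2 and 4 among them had nearly the same RNA profile. The blocked fit thus changes the animals as well as the block, and its p-value cannot be ranked against that of the main test.

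The size of the RNA rise depended on which counts were read. In the exon columns Camk2a was at 1019.3, 913.8, 1042.2 and 1092.4 CPM in control mice 1, 3, 6 and 8 and at 1301.2, 1241.0, 1562.2 and 1249.8 CPM in KO mice 2, 4, 5 and 7. The genotypes again did not overlap, and the level rose (edgeR log2 fold change 0.40 ± 0.079 SE, adjusted p = 0.00958), where 8.64% of genes were called. In the counts that the exon column holds beyond the matched column, the log2 fold change was 0.26 ± 0.078 SE and did not pass (edgeR, adjusted p = 0.0864), where 2.72% of genes were called. TE computed from the exon columns fell by 0.53 (SE 0.094, adjusted p = 0.00138, edgeR). What either column covers is not given in the sources used here.

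The share of exon-column counts that lay outside the matched columns put this difference on a scale that does not use library totals. For Camk2a it was 77.1%, 76.3%, 75.4% and 71.5% in control mice 1, 3, 6 and 8 and 68.3%, 67.8%, 67.0% and 68.2% in KO mice 2, 4, 5 and 7. The KO libraries were close together and all lower than the lowest control, mouse 8. The mean went from 75.1% ± 2.5 to 67.8% ± 0.589 (SD, n = 4 each), a difference of -7.25 percentage points. An exact permutation test over mice gave a two-sided p = 0.0286, the lowest possible with 4 against 4 and not adjusted for the number of genes. It treats mice with nearly the same RNA profile as separate, and it was not repeated with their libraries summed. In a set of 11095 genes, all with a mean exon count of at least 100, 119 had a larger difference in size. The median difference was -0.53 points, and 6.07% had genotypes that did not overlap. Of 20563 genes with values in both kinds of column, 93 had an exon count below the matched count in a library. The matched column is therefore not always contained in the exon column, though no CaM kinase was among these genes. Camk1 was the other CaM kinase without overlap, with 11.2% to 14.2% in controls and 9.64% to 10.4% in KO mice. The shares of the remaining 7 overlapped, with mean differences from -2.47 points for Camk2b to 0.23 points for Camkk1.

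**Figure D2:**
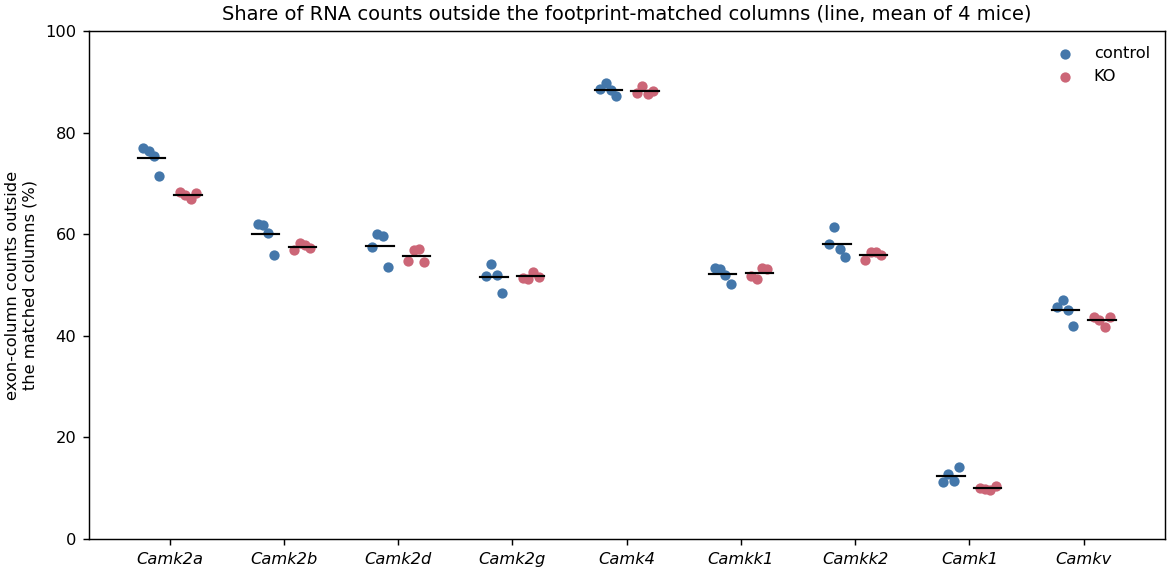
Share of exon-column RNA counts that lie outside the matched columns, in percent, for each CaM kinase. Points are mice and lines are means of 4 mice; the 4 KO mice sit at 67.0% to 68.3% for Camk2a, below the controls at 71.5% to 77.1%.

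Markers of cell types and regions were read beside the Camk2a values, since the dissected tissue can differ between animals. Summed RNA of 7 excitatory neuron markers was at 1779 to 1937 CPM in controls and 2064 to 2152 CPM in KO mice, without overlap; 1 of the 7 was called, higher, and none was at 0 in any library. Their summed footprints were at 1526 to 1552 against 1595 to 1628 CPM, also without overlap. Summed RNA of 6 oligodendrocyte markers was at 4859 to 5377 CPM in controls and 4265 to 4617 CPM in KO mice, and 1 was called, lower. Hippocampus markers (4 genes) were lower in KO mice in RNA (97.0 to 112 against 124 to 135 CPM) and in footprints (155 to 167 against 230 to 244 CPM), and hypothalamus markers (5 genes, with Hcrt at 0 in an RNA library) were at 12.9 to 18.8 against 31.8 to 61.7 CPM in RNA. Of those tested in RNA, 1 of 3 hippocampus and 3 of 4 hypothalamus markers were called, all lower, where 7.51% of all genes were called. For single genes, genotypes did not overlap in 15.1% of those tested in RNA and 37.3% in footprints. Striatum markers overlapped in RNA (603 to 641 against 525 to 620 CPM) and were higher in KO footprints (1278 to 1339 against 1153 to 1193 CPM). The summed RNA of markers of inhibitory neurons, astrocytes, microglia, endothelium and choroid plexus overlapped between genotypes. In footprints, inhibitory neuron markers were at 1636 to 1680 CPM in controls and 1710 to 1734 CPM in KO mice, and choroid plexus markers, with Folr1 at 0 in a library, at 9.68 to 13.7 and 4.74 to 7.39 CPM, both without overlap. Oligodendrocyte markers (8489 to 8636 against 8305 to 8348 CPM in KO mice) and hypothalamus markers (89.2 to 97.5 against 32.0 to 34.6 CPM, with Agrp at 0 in a library) did not overlap in footprints either. Immediate early genes, which neurons switch on with activity, rose in 12 of 12 cases in both assays; their summed RNA was at 1171 to 1208 CPM in KO mice 2, 4 and 7, 525 CPM in KO mouse 5, 280 to 289 CPM in control mice 1, 3 and 6 and 578 CPM in control mouse 8. Camk2a RNA was highest among KO mice in mouse 5, which had the least immediate early gene RNA of them, and highest among controls in mouse 8, which had the most. Without mice 5 and 8, RNA calls were 2 of 7 excitatory and 3 of 6 striatum markers, all higher, 2 of 6 oligodendrocyte and 3 of 6 astrocyte markers, all lower, 2 higher and 2 lower of 7 inhibitory neuron markers, 2 of 3 choroid plexus, 3 of 4 hypothalamus, 1 of 3 hippocampus and 1 of 6 microglia markers, all lower, and 12 of 12 immediate early genes, all higher, where 22.7% of all genes were called. The part of these markers in the Camk2a result was not tested.

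The other CaMKII subunits were not called in RNA but moved in footprints. Camk2d, the delta subunit, also found in glia and many non-neuronal tissues, had the largest footprint change of the CaM kinases. Its footprints were at 229.2, 227.6 and 229.8 CPM in control mice 1, 3 and 9 and at 181.0, 184.8 and 177.4 CPM in KO mice 2, 4 and 10. The groups were far apart compared with the spread within them, and the footprints fell to 79.1% of control (edgeR log2 fold change -0.34 ± 0.042 SE, adjusted p = 1.63e-10), a call kept with the spread of all 14 libraries (adjusted p = 0.00614, edgeR). Camk2d RNA was at 130.3, 133.1, 132.3 and 136.3 CPM in control mice 1, 3, 6 and 8 and at 110.9, 106.9, 143.6 and 114.6 CPM in KO mice 2, 4, 5 and 7. KO mouse 5 lay above every control and the other 3 KO mice below them, so the fold change of -0.16 ± 0.080 (SE) was not called (adjusted p = 0.234, edgeR). It was called without mouse 5 (-0.26, adjusted p = 0.00803, edgeR) and without mice 5 and 8 (-0.25, adjusted p = 0.00141, edgeR). Its TE was not called (-0.17 ± 0.10 SE, adjusted p = 0.338, edgeR).

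Camk2b, the beta subunit, which binds actin and targets the holoenzyme to the cytoskeleton, had footprints of 1116.4, 1150.4 and 1139.1 CPM in control mice 1, 3 and 9 and 1069.1, 1058.4 and 1071.8 CPM in KO mice 2, 4 and 10. The groups did not overlap, and the footprints fell to 93.9% of control (edgeR log2 fold change -0.091 ± 0.023 SE, adjusted p = 0.00118). The call did not hold on plain library sizes (-0.032, adjusted p = 0.320, edgeR) and with the spread of all 14 libraries (adjusted p = 0.197, edgeR). Its RNA was the steadiest of the 4 CaMKII genes between genotypes, at 498.7 to 522.8 CPM in controls and 506.7 to 534.0 CPM in KO mice, with an edgeR log2 fold change of 0.027 ± 0.048 SE (adjusted p = 0.784).

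Camk2g, the gamma subunit, moved the other way in footprints. Control mice 1, 3 and 9 had 331.6, 326.3 and 333.0 CPM, and KO mice 2, 4 and 10 had 361.7, 359.0 and 357.1 CPM. No library overlapped and the rise was 0.12 ± 0.034 (SE, adjusted p = 0.00369, edgeR), a call lost with the spread of all 14 libraries (adjusted p = 0.143, edgeR). Camk2g RNA was at 220.6 to 254.4 CPM in controls and 250.2 to 254.7 CPM in KO mice and was not called (0.093 ± 0.054 SE, adjusted p = 0.319, edgeR), except without mice 5 and 8 (0.14, adjusted p = 0.0312, edgeR). In all, 4 of 9 CaM kinases were called in footprints, 1 higher and 3 lower, beside 25.7% of all genes. The CaMKII genes are close paralogs, and how reads from stretches they share were assigned is not given in the sources used here, which leaves their separate values uncertain to that extent.

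**Figure D3:**
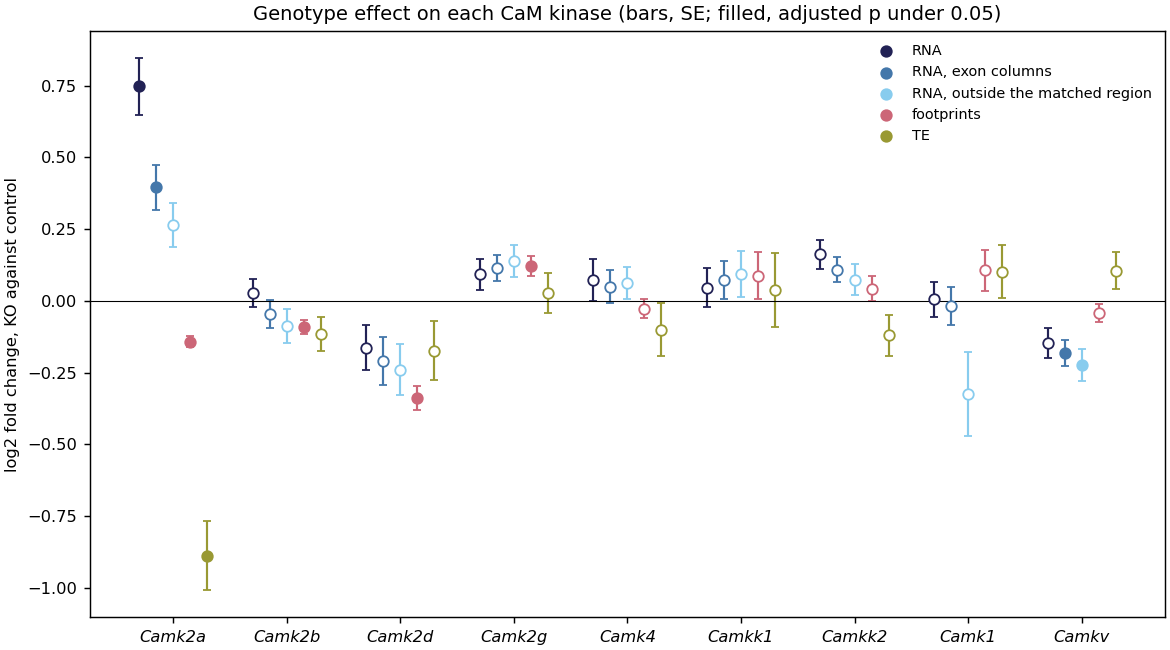
Log2 fold change of KO against control for each CaM kinase in RNA, in both other RNA readings, in footprints and in TE, with bars of 1 SE. Filled points have an adjusted p under 0.05; Camk2a runs from 0.75 in RNA through 0.40 and 0.26 to -0.14 in footprints and -0.89 in TE, and the other members lie between -0.34 and 0.16.

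CaMKII holoenzymes mix their subunits, so the make-up of the CaMKII counts was followed as the share of each gene in the sum of the 4. These are shares of counts, not of molecules, since longer genes collect more counts. In RNA, Camk2a made up 32.8%, 32.5%, 35.3% and 37.8% of CaMKII counts in control mice 1, 3, 6 and 8 and 45.4%, 45.6%, 51.1% and 44.7% in KO mice 2, 4, 5 and 7. It was the smaller part beside Camk2b in control mice 1, 3 and 6 and the largest part in control mouse 8 and every KO mouse. The mean share rose by 12.1 percentage points, from 34.6% ± 2.48 to 46.7% ± 2.97 (SD, n = 4 each; p = 0.0286 in the exact permutation test, again the lowest possible). The shares of Camk2b (37.9% to 31.1%), Camk2d (9.90% to 7.08%) and Camk2g (17.6% to 15.1%) were correspondingly lower in KO mice, also without overlap, while the summed level of the 4 genes went from 1346 ± 81.8 to 1675 ± 124 CPM (SD, n = 4 each). In the exon columns the Camk2a share went from 47.3% to 54.6%, a difference of 7.28 points.

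In footprints no share moved by more than 1.23 points. Camk2a held 64.9% to 65.3% of CaMKII footprints in controls and 63.5% to 64.5% in KO mice, a difference of -1.04 points (p = 0.1 in the exact permutation test, the lowest that 3 against 3 allows). The largest shift was that of Camk2g, from 6.81% ± 0.124 to 8.04% ± 0.123 (SD, n = 3 each), followed by Camk2d, from 4.72% ± 0.0693 to 4.05% ± 0.0737. Neither overlapped between genotypes, and both exact permutation tests gave p = 0.1. The Camk2b share overlapped (23.2% to 23.6% against 23.5% to 24.2%). Summed CaMKII footprints went from 4850 ± 66.2 to 4466 ± 45.5 CPM (SD, n = 3 each).

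**Figure D4:**
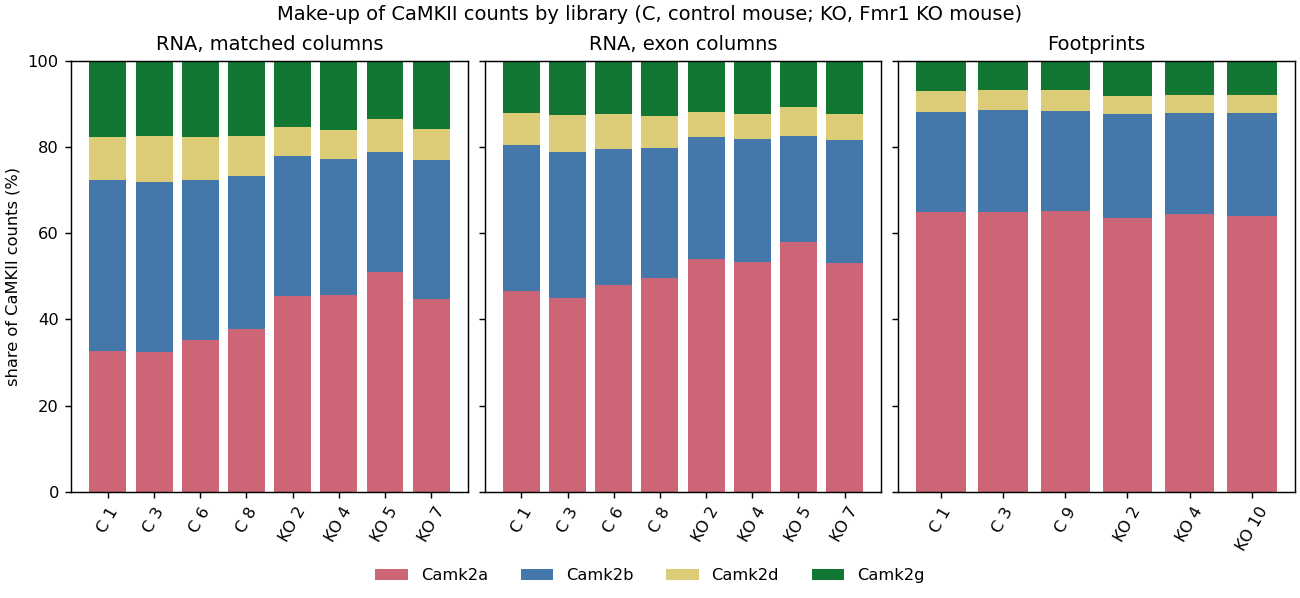
Share of each gene in the summed counts of the 4 CaMKII genes, in percent, for every library of the matched RNA columns, the exon columns and footprints. The Camk2a band is 32.5% to 37.8% in control RNA and 44.7% to 51.1% in KO RNA, and between 63.5% and 65.3% in all footprint libraries.

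The kinases of the cascade changed little. Camkk2, a CaM kinase kinase that also phosphorylates AMPK, had RNA levels of 285.7, 276.5, 302.3 and 306.4 CPM in control mice 1, 3, 6 and 8 and 325.7, 327.7, 329.4 and 328.0 CPM in KO mice 2, 4, 5 and 7. The KO libraries were within 4 CPM of each other and above all controls, but the fold change of 0.16 ± 0.051 (SE) was not called (adjusted p = 0.0658, edgeR). It was called by DESeq2 (adjusted p = 0.0286), without mouse 8 (adjusted p = 0.0202, edgeR) and without mice 5 and 8 (adjusted p = 0.00524, edgeR). Camkk2 footprints were at 182.7 to 191.2 CPM in controls and 188.3 to 199.0 CPM in KO mice, with overlap (0.042 ± 0.044 SE, adjusted p = 0.531, edgeR). Camkk1, the other CaM kinase kinase, was at 60.7 to 65.6 CPM in control RNA and 61.8 to 74.2 CPM in KO RNA (adjusted p = 0.736, edgeR), and its footprints, at 48.0 to 63.9 against 55.3 to 65.8 CPM, had the largest SD of the 9 genes relative to the mean.

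Camk4, the nuclear kinase that phosphorylates CREB, was at 164.7 to 176.7 CPM in control RNA and 162.3 to 211.5 CPM in KO RNA. The 3 KO mice other than mouse 5 lay at 162.3 to 174.3 CPM, and the fold change of 0.074 ± 0.073 (SE) was not called (adjusted p = 0.590, edgeR). Camk4 footprints were at 369.2 to 375.1 CPM in controls and 358.7 to 371.4 CPM in KO mice (-0.027 ± 0.033 SE, adjusted p = 0.605, edgeR). Camk1, a cytosolic kinase with roles in axon and dendrite growth, was at 93.2 to 105.4 CPM in control RNA and 92.6 to 102.7 CPM in KO RNA (0.0054 ± 0.061 SE, adjusted p = 0.970, edgeR). Its footprints were at 64.1 to 66.0 CPM in controls and 68.5 to 71.2 CPM in KO mice, without overlap, and were not called (0.11 ± 0.071 SE, adjusted p = 0.290, edgeR). Camk1 and Camkk2 overlap the protein-coding genes Ogg1 and P2rx4 in RefSeq, and the strand setting of the counting is not given in the sources used here, so reads of the neighbours may be included.

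Camkv, the pseudokinase, was close to the threshold in RNA. It was at 441.8, 428.7, 439.9 and 433.7 CPM in control mice 1, 3, 6 and 8 and at 377.1, 380.4, 418.4 and 399.5 CPM in KO mice 2, 4, 5 and 7. The groups did not overlap, with KO mouse 5 nearest to the controls, and the fold change of -0.15 ± 0.051 (SE) was not called (adjusted p = 0.0903, edgeR). It was called in the exon columns (-0.18 ± 0.045 SE, adjusted p = 0.0278, edgeR), in the counts outside the matched columns (-0.23 ± 0.056 SE, adjusted p = 0.0471, edgeR), without mouse 5 (adjusted p = 0.0268, edgeR) and without mice 5 and 8 (adjusted p = 0.00534, edgeR). Camkv footprints were at 398.7 to 405.7 CPM in controls and 383.1 to 402.7 CPM in KO mice (-0.042 ± 0.032 SE, adjusted p = 0.380, edgeR). Its TE was not called (0.11 ± 0.066 SE, adjusted p = 0.371, edgeR). Across the 9 genes, KO mouse 5 held the highest KO value of RNA for 6, namely Camk2a, Camk2d, Camk4, Camkk1, Camkk2 and Camkv. Without mice 5 and 8, the RNA fits called 3 of the 9 higher (Camk2a, Camk2g and Camkk2) and 2 lower (Camk2d and Camkv), where 22.7% of all genes were called.

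Within single animals, the CaM kinases differed widely in footprints relative to RNA. In mice 1 to 4 the ratio of footprint to RNA CPM was 3.78 to 7.71 for Camk2a, 2.0 to 2.3 for Camk2b, 2.06 to 2.26 for Camk4, 1.63 to 1.76 for Camk2d and 1.41 to 1.48 for Camk2g. It was 0.862 to 1.05 for Camkk1, 0.918 to 1.06 for Camkv, 0.626 to 0.725 for Camk1 and 0.591 to 0.669 for Camkk2. These ratios describe counts of a pair of assays with different library chemistry. Camk2a was the one gene of the 9 whose range came apart by genotype by more than 1.5-fold.

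The genes whose level followed Camk2a most closely over the libraries were looked up among genes at 10 CPM or more, as a description only, since libraries of a genotype share much of their level. Over the 8 RNA libraries, the closest of 10022 genes were Ahcyl1, an IP3 receptor regulator (Pearson r = 0.998), Kcnab1, a potassium channel beta subunit (0.990), Mapk10, a JNK kinase (0.990), Efnb2, an ephrin ligand (0.989), and Ctgf, a matrix-associated growth factor (0.987). Ahcyl1 RNA lay at 106 to 135 CPM in controls and 172 to 228 CPM in KO mice. Among the other CaM kinases, r with Camk2a ran from 0.939 for Camkk2 and 0.791 for Camk2g to -0.671 for Camkv. Over the 6 footprint libraries, genes among the closest of 9282 were Gspt2 (0.997), which encodes a translation termination factor, Exoc7 (0.995), of the exocyst, Pdzd2 (0.995) and Atn1 (0.995).

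The genes around the CaM kinases were read from a list of 59 by role, of which 58 were in the table. In RNA 5 of 58 rose and 4 fell, with a median log2 fold change of 0.048 (all genes -0.0010). In footprints 8 of 56 rose and 16 fell (median -0.077, all genes 0.0060), and in TE 2 of 56 rose and 7 fell (median -0.083, all genes -0.0026). These are called shares of 15.5%, 42.9% and 16.1%, beside 7.51%, 25.7% and 7.14% of all genes.

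Calmodulin, the calcium sensor that all these kinases share, is encoded by several genes for an identical protein. Calm2 fell in RNA, from 1588 to 1716 CPM in controls to 1263 to 1321 CPM in KO mice (-0.34, adjusted p = 0.00165, edgeR), and in footprints, from 1443 to 1465 CPM to 1131 to 1180 CPM (-0.33, adjusted p = 9.69e-24, edgeR). Calm3 fell in RNA (-0.21, adjusted p = 0.0185, edgeR), a call lost in the exon columns and without any single one of mice 2, 4, 6 or 7 (adjusted p up to 0.0856), and in footprints (-0.14, adjusted p = 7.78e-08, edgeR). Neither was called in TE (adjusted p = 0.948 for Calm2 and 0.523 for Calm3, edgeR). Of 4 calmodulin-binding buffers, Gap43, a growth cone protein, and Pcp4, which speeds calcium exchange on calmodulin, fell in RNA (-0.50 and -0.25, adjusted p = 0.000317 and 0.0127, edgeR). The Pcp4 call was lost without mouse 2 or mouse 4 (adjusted p up to 0.0613, edgeR). Gap43 also fell in footprints (-0.11, adjusted p = 0.0101, edgeR). This call was lost on plain library sizes, with DESeq2, with the spread of all 14 libraries and without mouse 2. Pcp4 rose in footprints, from 449 to 455 CPM in controls to 549 to 567 CPM in KO mice (0.30, adjusted p = 8.94e-15, edgeR). Both Gap43 and Pcp4 rose in TE (0.38 and 0.55, adjusted p = 0.00280 and 3.05e-05, edgeR), and the Gap43 call in TE was lost in the exon columns.

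Camk2n1, which encodes an inhibitor of active CaMKII, had the same combination as Camk2a in direction, though its RNA call depended on the libraries and the block used. Its RNA was at 209 to 331 CPM in controls and 319 to 370 CPM in KO mice (0.27 ± 0.11 SE, adjusted p = 0.134, edgeR); it was called without mouse 8 (0.37, adjusted p = 0.0166, edgeR), without mice 5 and 8 (0.33, adjusted p = 0.00982, edgeR) and when title prefixes were blocked (0.29, adjusted p = 0.0433, edgeR). Its footprints fell from 248 to 263 CPM to 191 to 212 CPM (-0.33 ± 0.042 SE, adjusted p = 1.60e-10, edgeR; not called with the spread of all 14 libraries). Its TE fell (-0.60 ± 0.14 SE, adjusted p = 0.0128, edgeR), a call lost in the exon columns and without mouse 2 or mouse 3 (adjusted p up to 0.0696). The other inhibitor, Camk2n2, was not called in RNA, footprints or TE (adjusted p from 0.208 to 0.863, edgeR), nor was Eef2k, the calmodulin-regulated kinase that inhibits elongation factor 2 (adjusted p from 0.778 to 0.889, edgeR). Among 17 other calmodulin-regulated or CaMK-family kinases, 1 was called in RNA, higher, and 2 of the 16 tested in footprints, both lower, with the largest fall in Dclk3, a doublecortin-like kinase (-0.51, adjusted p = 1.62e-11, edgeR).

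Among 8 genes of calcineurin and the CaMK phosphatases, 1 rose in RNA (without mice 5 and 8, 1 rose and 2 fell), and 3 rose and 1 fell in footprints. Ppp3r1, the regulatory subunit of calcineurin, rose in both assays, by 0.37 in RNA (adjusted p = 0.00323, edgeR; lost in the exon columns) and 0.31 in footprints (adjusted p = 1.81e-19, edgeR). The others, named after their values were seen, were the catalytic subunits Ppp3ca and Ppp3cb, which rose in footprints (0.13 and 0.21, adjusted p = 6.14e-08 and 1.26e-07, edgeR), and the phosphatase Ppm1e, which fell (-0.24, adjusted p = 4.91e-09, edgeR). Of 12 downstream kinases and factors, 2 rose in RNA, namely Crtc1, a CREB coactivator (0.34, adjusted p = 0.0290, edgeR), and Mef2a, an activity-regulated transcription factor (0.28, adjusted p = 0.0142, edgeR). Of the 11 tested in footprints, 2 rose, namely Crem (0.33, adjusted p = 0.0398, edgeR) and Prkaa2, an AMPK catalytic subunit (0.22, adjusted p = 0.0280, edgeR), and 2 fell, including Hdac5, a histone deacetylase that CaM kinases phosphorylate (-0.38, adjusted p = 8.61e-05, edgeR). Both of these rises were lost with DESeq2, and leaving out single mice ended the call of Crem for 5 mice, of Prkaa2 for 4, of Crtc1 RNA for 6 and of Mef2a RNA for 2. Crtc1 fell in TE (-0.44, adjusted p = 0.0278, edgeR), a call lost when any of 7 mice was left out.

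Of 12 synaptic partners and substrates, 1 rose in RNA, 7 fell and 1 rose in footprints, and 3 fell in TE. Syn1, the vesicle phosphoprotein synapsin I and a CaMKII substrate, rose in RNA (0.46, adjusted p = 0.0144, edgeR; lost without mouse 6, adjusted p = 0.0521) and fell in TE (-0.53, adjusted p = 0.0106, edgeR). Shank3, a scaffold of the postsynaptic density, fell in TE by the same amount (-0.53, adjusted p = 0.00509, edgeR), with RNA of 184 to 234 CPM in controls and 223 to 244 CPM in KO mice. Of the 8 pathway calls named in RNA, all were lost with mice 2, 4 and 7 and mice 1 and 3 summed, and 7 with mice 5 to 8 alone. Without mice 5 and 8, 11 of 58 rose and 10 fell in RNA, and 3 of 56 rose and 10 fell in TE; these fits called 22.7% and 16.3% of all genes.

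**Figure D5:**
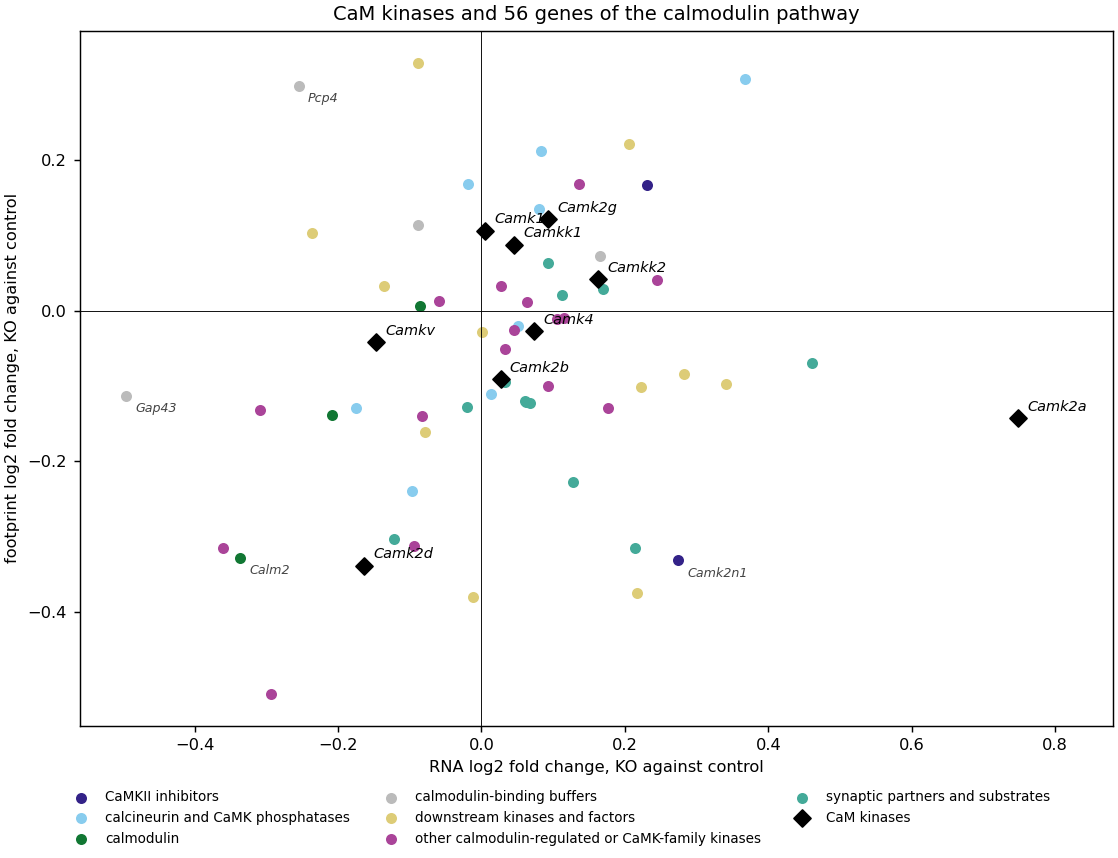
Log2 fold change of KO against control in RNA (x axis) and in footprints (y axis) for the CaM kinases (black diamonds) and 56 genes of the calmodulin pathway coloured by role. Camk2a lies farthest to the right, at 0.75 and -0.14; Calm2 and Camk2d lie low in footprints with RNA below 0.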

How the data were processed

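RNA-seq and ribosome profiling counts per gene were deposited by the authors as whole numbers without normalization, in a table of 23412 genes with a pair of columns for each RNA library and a column for each footprint library. The submitters' processing notes name Bowtie2, STAR 2.5, featureCounts, Subread 1.4.6 and the builds mm9 and mm10, with no role or order, so no coordinates are given. The matched RNA columns held values for 20563 genes and 52.9% to 56.7% of the exon-column totals. No row lacked a gene name. Samples were grouped by the genotype and mouse number in the labels.

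Counts were tested with edgeR 4.0.16 in R 4.3.3 (quasi-likelihood F test, TMM, filterByExpr at a minimum count of 10), within each assay and, for TE, as an interaction over 14 libraries with TMM within each assay. Benjamini-Hochberg adjustment ran over all genes tested, and a gene was called at an adjusted p under 0.05. Standard errors came from the F statistic. The fits were tested on simulated data. Shares were compared by exact two-sided permutation tests with unadjusted p-values. These tests treat all libraries as independent and were not repeated with libraries summed. The precision of a share within a library covers counting error only, since PCR copies are not independent molecules. DESeq2 1.42.0, plain library sizes, no filter, exon columns, replicate blocks and libraries left out or summed were alternatives; the fits without mice 5 and 8 and on the counts outside the matched columns were added after the data were seen. The mouse number pairs the libraries of mice 1 to 4 across assays, since it names the animal. Deviations from the group mean correlated between the assays of a mouse with r from -0.013 to 0.034. Between assays of different mice of a genotype r ran from -0.033 to 0.024, so the correlations do not set matched mice apart. The members, gene lists and tests were chosen with earlier results of these data known. Named genes were all 9 members, and among pathway genes the calmodulin genes, the CaMKII inhibitors, Eef2k and, for each comparison, up to 4 called genes with the largest rise and 4 with the largest fall. RefSeq (GRCm38.p6) was used only for overlapping genes. One listed gene was not analysed here, and a few genes that the rule names are not reported here.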

Additional observations from a re-analysis of the deposited data

Results flagged for a closer look

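Among 58 groups of 4 RNA libraries examined, 3 held a library far from the others. Chance flags about 5% of groups, so this number is close to what chance alone would give. KO mouse 5 was the library in each. The Camk2a level and the Camk2a share given below use the same Camk2a counts, so they are not separate observations. Its Camk2a RNA was at 950.3 CPM, with the nearest KO mouse at 743.4 CPM and the lowest at 717.4 CPM. Its Camk2a share of CaMKII counts was 51.1%, with the nearest KO mouse at 45.6% and the lowest at 44.7%. Its Camk2d level in the exon columns was 181.3 CPM, with the nearest KO mouse at 139.4 CPM and the lowest at 136.0 CPM. KO mice 2, 4 and 7 had nearly the same RNA profile. Without mouse 5 the rise of Camk2a RNA stayed called, and the fall of Camk2d RNA became called.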

How the results depend on the processing

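The RNA rise of Camk2a kept its direction in the 17 alternatives and its call in 16 of them; the exception was the counts outside the matched columns. Its fall in TE kept its call in all 18, and its fall in footprints in 10 of 11. The number of genes called moved far more than the Camk2a values. In RNA, 1014 genes were called, and 36 with mice 2, 4 and 7 and mice 1 and 3 summed, 57 with mice 5 to 8 alone, 3067 without mice 5 and 8, 326 in the counts outside the matched columns, and 372 (without mouse 4) to 1791 (without mouse 8) when single mice were left out. In footprints, 3123 were called, and 1801 with DESeq2 and 1514 in one fit over all libraries. In TE, 867 were called, and 477 with RNA libraries summed, 1986 without mice 5 and 8, and 380 (without mouse 2) to 1247 (without mouse 5) when single mice were left out. Of the genes called in footprints, 46.8% were higher in KO mice on TMM and 66.3% on plain library sizes.

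With the mouse as a replicate block, TE gave 1866 calls. That contrast rests on mice 1 to 4, which have both assays, so it changes the animals as well as the block. With the title prefix as a replicate block, RNA gave 968, footprints 3210 and TE 750. Neither block changed the call of a CaM kinase. The Camk2a share of CaMKII counts differed by 7.28 points in the exon columns, against 12.1.

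Values near 0 changed sign. In RNA, Camk2b was at -0.045 in the exon columns and -0.087 outside the matched columns, Camk1 at -0.017 in the exon columns, -0.017 with libraries summed and -0.33 outside the matched columns, and Camkk1 at -0.0026 without mice 5 and 8. On plain library sizes, footprints of Camk4 were at 0.032 and of Camkv at 0.018. In TE, Camk2g was at -0.025 with the mouse block and -0.015 without mice 5 and 8, and Camkk1 at -0.11 with the mouse block and -0.00023 with libraries summed. Leaving out single mice gave -0.0086 to 0.12 for Camk4 RNA, -0.011 to 0.075 for Camkk1 RNA, -0.018 to 0.039 for Camk1 RNA, -0.046 to 0.18 for Camkk1 footprints, -0.0083 to 0.051 for Camk2g TE and -0.091 to 0.14 for Camkk1 TE. It gave differences of the outside share of -0.93 to 0.98 points for Camk2g, -0.73 to 0.14 for Camk4 and -0.41 to 0.62 for Camkk1. None of these was called in the main tests, and the cause was not tested.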
